A study of Caenorhabditis elegans with 30 samples.

Results

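The comparison described here set young adult Caenorhabditis elegans that carried the mutation dpy-9(e12) against wild type worms of the strain N2, both grown on isotonic agar, 3 arrays of each among the 30 arrays of the series. All 22548 non-control probe sets of the Affymetrix C. elegans array were compared, out of 22625 in all. A probe set is a group of short probes meant to report 1 transcript, although some can bind several, and 887 stand for several genes. Its value is a brightness (intensity), given below as its log2, on which a difference of 1 is a 2-fold change. Every group on isotonic agar had 51 mM NaCl in the plates and no other treatment: dpy-9(e12), the other dumpy mutant dpy-10(e128), osm-8(n1518), osm-7(n1515), osm-11(n1604) and N2, with 3 arrays each. Levels are also given for N2 worms that had been moved to 200 mM NaCl for 15 min, 1 h or 6 h, or raised on it for 1 generation. Each mutant group was 1 strain with 1 allele, so an effect of dpy-9(e12) cannot be told apart from that of anything else that differs between this strain and N2. Each array held RNA pooled from whole worms of one synchronized population, sorted by a large-particle sorter with a gate meant to exclude larvae by size. The methods do not say whether the gate was changed for dpy-9 worms, which are short. A difference in the stage of the sorted worms therefore cannot be told apart from the genotype. The methods describe individual replicate preparations for each time point, more than were hybridised, of which the 3 of best RNA quality went onto arrays. They do not say this separately for the mutants, and neither they nor the labels say that preparations came from separate cultures, so p-values measure the spread between these chosen preparations, which may be technical. The labels describe a wash and a move to new plates for worms of the salt series, whereas the mutants stayed on 51 mM NaCl throughout, and such handling cannot be told apart from the genotype.

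dpy-9 and dpy-10 encode collagens of the annular furrows, the circumferential grooves of the worm's cuticle, and loss of either makes the animal short and fat. The cuticle is an extracellular coat of collagens that the epidermis secretes anew at each molt, before the old coat is shed. Furrow mutants are known to make glycerol and to survive high salt without having met it, as are mutants of osm-8, which encodes a secreted mucin-like protein, and of osm-7 and osm-11, which encode secreted ligands of the Notch receptor. The comparison asks which transcripts change in the furrow mutant without any salt.

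In dpy-9 worms 2223 probe sets were higher and 1106 lower than in N2, 9.86% and 4.91% of the 22548 tested (limma, a threshold of 0.01 on the Benjamini-Hochberg adjusted p together with a 3-fold change, which is a log2 difference of 1.58). Counted with 1 probe set per gene, 10.4% of 17118 genes were higher and 4.91% lower, and these are the shares against which the gene groups below are read. "Rose", "fell" and "called" are used only of genes past both limits. Group means under a log2 of 4 lay near the background of these arrays. Where 1 of the 2 means was that low the true change may be larger than the value given, which holds for 1105 of the 2223 rises and 201 of the 1106 falls. That the 3 dpy-9 arrays did not overlap the 3 N2 arrays says little by itself here, since 19.8% of all probe sets lay wholly above N2 and 55.9% wholly below.

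The arrays of the 2 groups were not alike in overall brightness. Median intensity was 13.9 to 14.2 on the dpy-9 arrays and 9.94 to 11.3 on the N2 arrays, while the 5934 probe sets at a log2 of 6 or more on every isotonic array had a median change of -0.60. The median change over all probe sets was -0.08. Of the called probe sets 66.8% were higher as deposited, 38.2% after each array was centred on its median (median change -0.52), 63.0% after quantile normalization and 88.4% after centring on the bright probe sets (median change 0.42), so the balance of rises and falls was not settled. Counts and medians of gene groups below are at the deposited scale unless another is named, and a group median within about 0.5 of 0 took the other sign in 1 or more of these scalings for many groups. Replicate arrays correlated at 0.990 to 0.995 in dpy-9 and 0.992 to 0.997 in N2, and dpy-9 arrays correlated with dpy-10 arrays at 0.981 to 0.992, with osm-8 at 0.964 to 0.974 and with N2 at 0.896 to 0.911.

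**Figure D1:**
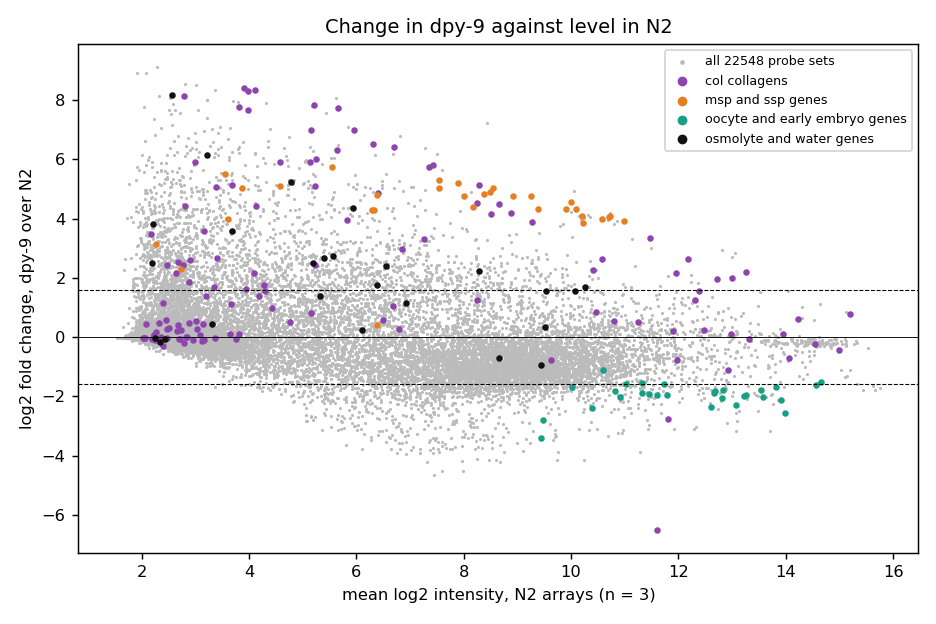
Log2 fold change of dpy-9 over N2 (vertical axis) against the mean log2 intensity on the 3 N2 arrays (horizontal axis) for all 22548 probe sets, with the col collagens, sperm genes, oocyte and early embryo genes and osmolyte genes coloured, 1 point per gene, and dashed lines at the 3-fold limit. The highest points are genes near background in N2, the major sperm protein genes lie above 0 and the oocyte genes below it.

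The mutated gene itself was low on every array. The dpy-9 probe set stood at 4.82, 4.83 and 5.61 on the dpy-9 arrays, against 4.61, 4.15 and 4.84 on the N2 arrays. The groups overlapped, and the difference of 0.55 ± 0.32 (standard error) was not past the limits (adjusted p = 0.142), and it was -0.03 after quantile normalization. The level of the mutated gene's transcript therefore did not check the labels.

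The other furrow collagens with a probe set of their own were also low. Of 5 measured members of this group 3 rose and 0 fell, and dpy-10 had no probe set of its own. dpy-3 stood at 5.30, 6.03 and 5.80 on the dpy-9 arrays, against 3.37, 3.42 and 3.50 on the N2 arrays, a rise of 2.28 ± 0.24 (adjusted p = 1.42e-06). dpy-7 rose by 1.94 and dpy-8 by 2.11, both with N2 near background. With arrays centred on their medians 2 of the group were called, and with 32 added to each intensity before the log none was. Without probe sets that can bind several transcripts only 1 of the group was left, dpy-9 itself, which was not called.

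The collagens that give the worm its shape, outside the furrows, were a group with many rises. Of 13 measured members 9 rose and 0 fell, with a median change of 4.64. dpy-5, a collagen whose loss makes a dumpy worm, stood at 13.61, 13.67 and 13.82 on the dpy-9 arrays, against 5.13, 5.65 and 6.11 on the N2 arrays, a rise of 8.07 ± 0.27 (adjusted p = 6.58e-12). The groups were far apart, and the spread in each was under 1 log2 unit. sqt-1, sqt-2, rol-6 and rol-8, collagens whose mutants roll or are squat, rose by 6.43, 5.21, 4.64 and 6.42. bli-1 and bli-2, collagens of the struts of the adult cuticle, rose by 4.81 and 5.74, with bli-2 at 8.29, 7.28 and 8.23 on the dpy-9 arrays and 2.19, 2.16 and 2.22 on the N2 arrays. col-19, a collagen gene switched on in the adult, stood at 11.35, 11.38 and 10.80 on the dpy-9 arrays, against 12.12, 12.02 and 11.75 on the N2 arrays (difference -0.79, adjusted p = 0.00262, under 3-fold). The probe sets of sqt-3 disagreed, since the one with the higher level, which can bind related transcripts, differed by 0.65 and a second one by 6.20.

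The numbered collagens of the col class held many rises as well. Of 126 col genes 56 rose and 2 fell, and 39 were near background in both groups. col-49 stood at 12.29, 12.61 and 12.47 on the dpy-9 arrays, against 4.20, 4.19 and 3.94 on the N2 arrays, a rise of 8.35 ± 0.20 (adjusted p = 2.4e-13). col-48 stood at 12.32, 12.51 and 12.05 on the dpy-9 arrays, against 3.64, 3.56 and 4.76 on the N2 arrays, and col-120 at 11.06, 10.93 and 10.84 on the dpy-9 arrays, against 2.90, 2.64 and 2.85 on the N2 arrays. In N2 the mean of col-49 was 4.11 and the other 2 were near background, and all 3 were bright in dpy-9. For col-109 the 2 probe sets differed in size but not in direction, with rises of 8.92 and 4.85. Against these, the falls were col-101 (-6.50) and col-143. col-143 stood at 9.03, 9.53 and 8.57 on the dpy-9 arrays, against 12.17, 11.65 and 11.63 on the N2 arrays, a fall of 2.77 on the log2 scale. In each of the scalings tried between 44 and 64 col genes rose and 2 fell. Without probe sets that can bind several transcripts 76 col genes were left, of which 28 rose and 1 fell, with a median change of 0.55. The col rises therefore do not all count as separate measurements.

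Genes that build and remodel the cuticle held more rises than falls. Of 16 genes of collagen processing 5 rose, among them dpy-18 and phy-2, the catalytic subunits of collagen prolyl hydroxylase, by 3.11 and 2.45, the protease inhibitor gene bli-5 by 4.24 and the peroxidase gene mlt-7 by 2.50. dpy-18 stood at 9.87, 10.26 and 10.20 on the dpy-9 arrays, against 6.91, 6.99 and 7.09 on the N2 arrays. Of 29 genes of molting and the apical matrix 15 rose and 1 fell. mlt-8, needed to complete the molt, stood at 10.47, 10.25 and 10.72 on the dpy-9 arrays, against 3.72, 3.71 and 4.24 on the N2 arrays (change 6.59 ± 0.40), and the cuticlin gene cut-2 at 13.73, 13.44 and 13.90 on the dpy-9 arrays, against 7.50, 7.03 and 7.96 on the N2 arrays (change 6.19 ± 0.23). The fall was nhr-23, a nuclear receptor that drives molting gene expression, at 4.91, 6.10 and 3.54 on the dpy-9 arrays, against 7.32, 7.56 and 7.44 on the N2 arrays, where the dpy-9 arrays were themselves spread over more than 2 log2 units, and its second probe set, near background, differed by -0.31. nhr-23 was not called with the 6 arrays of dpy-9 and N2 alone (limma adjusted p = 0.0137). With 32 added 8 of the molting and 3 of the collagen processing genes rose. Of 79 hedgehog-related and patched-related genes 29 rose and none fell, or 25 rose and 2 fell with arrays centred on their medians. wrt-4, a hedgehog-related gene, stood at 10.31, 9.94 and 10.26 on the dpy-9 arrays, against 2.49, 2.54 and 2.51 on the N2 arrays (change 7.66 ± 0.20), and grd-14 and grl-21 of the same group rose by 6.42 and 6.35. Of 33 astacin protease genes 8 rose, nas-7 by 5.05. With 32 added 18 hedgehog-related and 4 astacin genes rose. Without probe sets that can bind several transcripts 53 hedgehog-related genes were left, of which 14 rose.

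**Figure D2:**
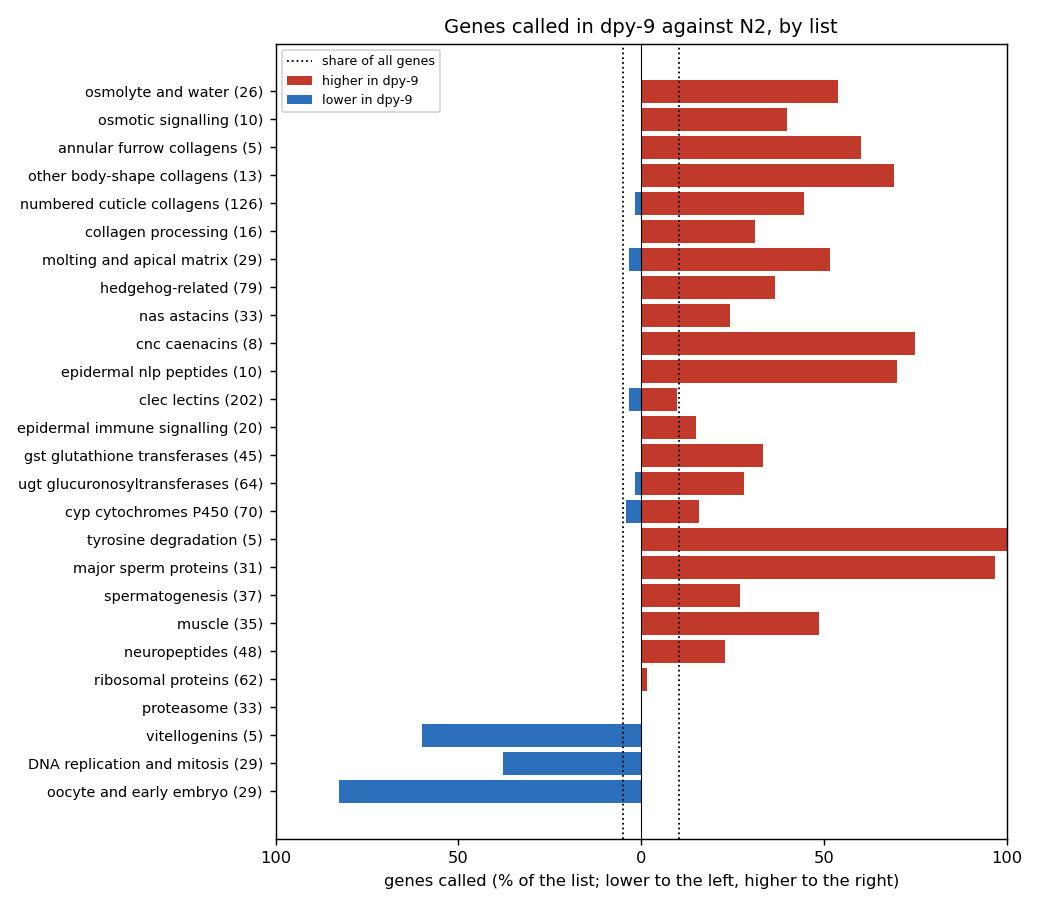
Share of each gene list called higher in dpy-9 (to the right) or lower (to the left), as a percentage of the list's measured genes, whose number stands in brackets. Dotted lines mark the shares over all 17118 genes, 10.4% higher and 4.91% lower.

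Of 26 genes of osmolytes and water channels, through which worms are known to meet high salt, 14 rose and none fell, with a median change of 1.72. The inositol transporter gene hmit-1.1 averaged 10.73 ± 0.26 on the dpy-9 arrays, against 2.56 ± 0.29 on the N2 arrays (SD, n = 3 each). The glycerol-3-phosphate dehydrogenase gene gpdh-1, whose enzyme makes the precursor of glycerol, stood at 9.65, 8.97 and 9.47 on the dpy-9 arrays, against 3.16, 3.37 and 3.12 on the N2 arrays. Both were near background in N2 and bright in dpy-9. Its paralogue gpdh-2 was already high in N2 and stood at 12.06, 11.86 and 11.96 on the dpy-9 arrays, against 10.30, 10.22 and 10.26 on the N2 arrays (change 1.70 ± 0.09, adjusted p = 7.6e-10).

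Within this group the members differed. The other inositol transporter genes hmit-1.2 and hmit-1.3 rose by 3.81 and 2.42, and the glucosidase-related genes aagr-1 and aagr-4 by 5.24 and 4.36, while aagr-2 differed by 1.54, just under the 3-fold limit. snf-3, a betaine transporter gene, stood at 7.28, 7.52 and 6.95 on the dpy-9 arrays, against 3.89, 3.91 and 3.23 on the N2 arrays (change 3.57 ± 0.31). The trehalose synthase genes tps-1 and tps-2 differed by 1.40 and 1.15, under 3-fold, whereas the trehalase genes split: tre-3 and tre-5 rose by 2.73 and 2.51, and tre-1 and tre-2 differed by -0.93 and -0.71, under 3-fold. tre-1 stood at 8.58, 8.61 and 8.34 on the dpy-9 arrays, against 9.61, 9.59 and 9.12 on the N2 arrays, and the groups did not overlap. Of the water and glycerol channel genes, aqp-8 rose by 2.67, aqp-4 by 2.51, aqp-2 by 2.25 and aqp-1 by 1.75, aqp-7 differed by 1.57, and the aquaporin genes not named here were near background in both groups. The call of aqp-1 was lost without any 1 of the 6 arrays (limma adjusted p = 0.0181 to 0.0325). The count of rises in the group lay between 11 and 18 over the scalings tried, with no fall in any.

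**Figure D3:**
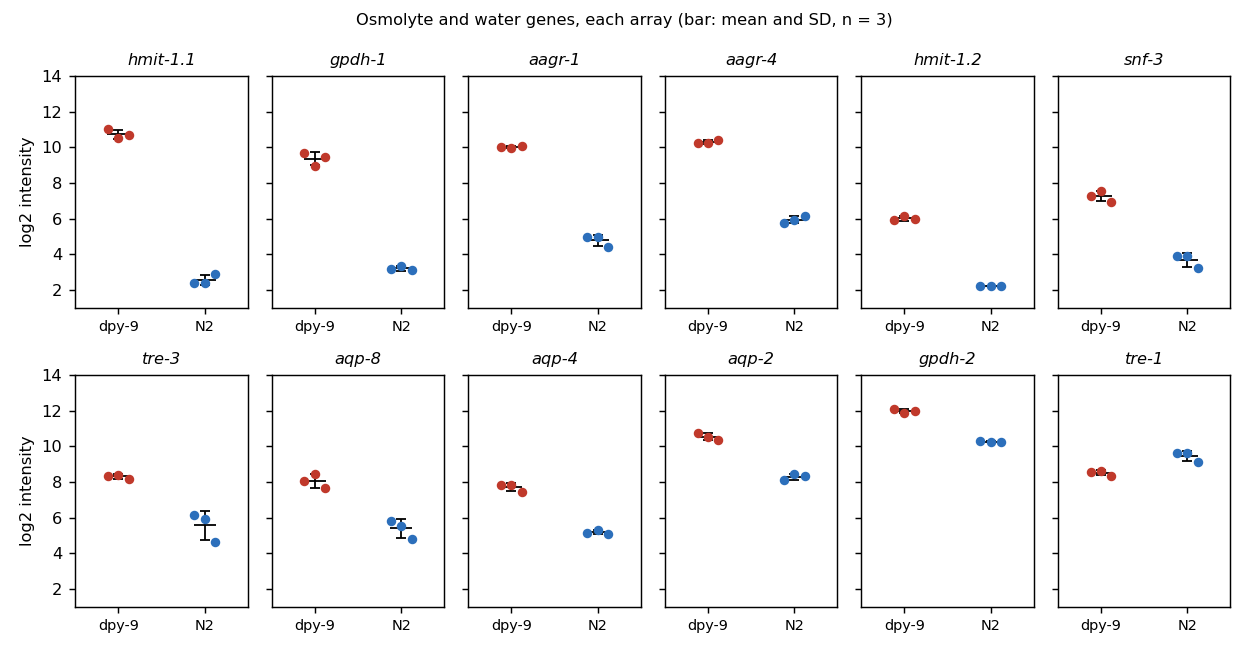
Log2 intensity of 12 genes of osmolytes and water on each of the 3 dpy-9 arrays (left) and 3 N2 arrays (right), with the mean and SD as black bars. In 11 of the genes shown the dpy-9 arrays lay above the N2 arrays, and in tre-1 they lay below. The 12 were picked from the 26 of the group, of which 18 lay wholly above N2 and 4 wholly below. Over all probe sets the shares were 19.8% and 55.9%.

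The dpy-9 level can be set beside those of N2 worms in 200 mM NaCl, as means of 3 arrays. gpdh-1 averaged 9.36 in dpy-9, and in N2 it averaged 3.22 on isotonic agar, 7.71 after 15 min in salt, 11.79 after 1 h, 9.75 after 6 h and 8.21 after 1 generation. hmit-1.1 averaged 10.73 in dpy-9, and in N2 it averaged 2.56 on isotonic agar and 2.96, 6.77, 9.73 and 7.97 at the same times in salt. The mean of gpdh-1 in dpy-9 worms without salt was below those of N2 worms after 1 h and 6 h in salt and above those after 15 min and 1 generation, and their mean of hmit-1.1 was above that of N2 at each of these times. For the collagen gene dpy-5 the mean was 13.70 in dpy-9 and between 4.30 and 5.93 over the same times in salt. hmit-1.2 averaged 6.01 in dpy-9 and no more than 2.22 at these times in salt, near background. These levels share the isotonic N2 arrays with the fold changes above, and no test was run between dpy-9 and the salt groups.

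Of the genes through which the osmotic response is known to be set, 4 of 10 measured rose and none fell, or 1 fell with arrays centred on their medians or quantile normalized. ptr-23, which encodes a patched-related protein that osm-8 mutants need for their resistance, averaged 10.29 ± 0.26 on the dpy-9 arrays, against 5.57 ± 0.22 on the N2 arrays (SD, n = 3 each, change 4.72 ± 0.21), and its other 3 probe sets rose by 4.31, 5.09 and 4.74. Its rise is also counted above with the hedgehog-related and patched-related genes. osm-11 stood at 10.76, 10.81 and 10.92 on the dpy-9 arrays, against 8.63, 8.30 and 8.48 on the N2 arrays, and osm-7 at 8.26, 7.95 and 7.32 on the dpy-9 arrays, against 2.98, 3.26 and 3.32 on the N2 arrays. dos-1, which encodes a Notch ligand of the same kind, rose by 2.04. The osm-8 transcript was low, at 2.86, 3.35 and 4.36 on the dpy-9 arrays, against 2.37, 2.35 and 2.41 on the N2 arrays (change 1.14 ± 0.31, under 3-fold). The kinase gene wnk-1 differed by -1.09, under 3-fold.

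The epidermis makes antimicrobial peptides when it is infected or wounded. Of 8 caenacin genes 6 rose, cnc-4 by 6.04, cnc-7 by 4.31, cnc-6 by 2.59 and cnc-2 by 1.93, and of 10 nlp genes of this kind 7 did. cnc-4 stood at 11.92, 11.38 and 11.39 on the dpy-9 arrays, against 5.23, 5.90 and 5.44 on the N2 arrays (change 6.04 ± 0.20). Without dpy-9 replicate 3 the change of cnc-2 was 1.40, under 3-fold. With the 6 arrays of dpy-9 and N2 alone cnc-6 and cnc-2 were not called (limma adjusted p = 0.0118 and 0.016), which leaves 4 of the caenacin genes, and with 32 added 3 were called. nlp-29, the best known reporter of fungal infection and wounding, stood at 11.43, 11.46 and 11.60 on the dpy-9 arrays, against 6.91, 7.01 and 7.29 on the N2 arrays, and its neighbours in the class nlp-30, nlp-31 and nlp-33 rose by 5.02, 4.35 and 4.03. The nlp peptides include near-identical copies. Of the 10 probe sets 5, and 1 more of a second design, can bind more than 1 transcript, so their rises are not independent of each other. Without any probe sets that can bind several transcripts 4 of these nlp genes were left, of which 1 rose, with a median change of 0.285. Of 20 genes listed for this immune signalling 3 rose: dcar-1, the receptor gene upstream of nlp-29, by 2.77, hpd-1 by 2.73 and the adaptor gene tir-1 by 1.92. Of these hpd-1 is an enzyme gene that is counted again below with tyrosine breakdown. The epidermal GATA factor gene elt-3 differed by 1.34 and the intestinal elt-2 by 0.52, both under 3-fold, and elt-2 differed by -0.09 after quantile normalization.

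Of 202 C-type lectin genes 20 rose and 7 fell, against 10.4% and 4.91% over all genes, and 156 were near background in both groups. The changes ran from a rise of 4.31 in clec-123 to a change of -3.40 in clec-222. Of 16 lysozyme genes 4 rose, lys-1 by 2.51, lys-2 by 2.55, lys-8 by 2.14 and ilys-4 by 2.80, and lys-6 fell, with a change of -3.16. lys-2 stood at 11.08, 10.87 and 11.17 on the dpy-9 arrays, against 8.42, 8.41 and 8.64 on the N2 arrays.

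Of 45 glutathione transferase genes 15 rose and none fell, and of 64 glucuronosyltransferase genes 18 rose and 1 fell. gst-4, a widely used reporter of oxidative stress, stood at 10.09, 9.88 and 9.74 on the dpy-9 arrays, against 6.11, 6.00 and 4.64 on the N2 arrays (change 4.32 ± 0.27), and gst-10 at 10.20, 10.01 and 10.20 on the dpy-9 arrays, against 4.79, 3.73 and 2.86 on the N2 arrays (change 6.34 ± 0.35). The N2 arrays of gst-10 were themselves spread over nearly 2 log2 units, below every dpy-9 array. Of 70 cytochrome P450 genes 11 rose and 3 fell. Of 19 antioxidant genes only the thioredoxin gene trx-3 (5.81) and the catalase gene ctl-2 (1.65) rose, and quantile normalization or centring on bright probe sets gave 3 rises and centring on the medians 1. The call of ctl-2 was lost without dpy-9 replicate 3 or N2 replicate 1, where its change was under 3-fold (1.57 without N2 replicate 1). All 5 measured genes of tyrosine breakdown rose. The dioxygenase gene hpd-1 stood at 11.04, 10.83 and 11.01 on the dpy-9 arrays, against 8.25, 8.24 and 8.20 on the N2 arrays. The genes gst-42, tatn-1, hgo-1 and fah-1 rose by 3.51, 2.00, 2.02 and 1.96, though with arrays centred on their medians 3 of the group were called. The rise of gst-42 is also counted above with the glutathione transferase genes.

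None of 16 genes of the unfolded protein response was called by limma at the deposited scale or in the 4 other scalings, while 10 of them had an unadjusted p under 0.05, and the chaperone gene hsp-4 stood at 11.47, 11.60 and 11.28 on the dpy-9 arrays, against 12.52, 12.48 and 12.54 on the N2 arrays (change -1.06, under 3-fold). Of 21 heat shock genes 2 rose, hsp-12.1 and hsp-12.2, by 1.97 and 2.22, and 2 fell, hsp-12.3 and the heat shock factor gene hsf-1, with changes of -2.23 and -2.05. In the other scalings 5 rose and 1 fell with centring on bright probe sets, 3 and 2 after quantile normalization, 1 and 2 with centring on the medians, and 1 and 1 with 32 added, where hsp-12.1 and hsp-12.3 lost their calls. Ribosomal protein genes (1 of 62 called) and proteasome genes (0 of 33 called, 31 with an unadjusted p under 0.05) had median changes of -0.18 and -0.70 at the deposited scale, and of 0.32 and -0.20 with arrays centred on bright probe sets, so that the direction for the ribosomal genes turned.

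A hermaphrodite first makes a fixed store of sperm and then turns its germ line to oocytes for the rest of its life, so both kinds of transcript are read in these whole worms. Of 31 major sperm protein and related genes 30 rose and none fell, with a median change of 4.38, but 27 of their probe sets can bind several of these near-identical genes and so do not count as separate measurements. Of 37 other sperm genes 10 rose and none fell, with a median change of 0.19. That median takes in 20 genes near background in both groups, where a change could not be read. Of these 37 genes 17 lay wholly above N2 and 8 wholly below, against 19.8% and 55.9% of all probe sets. With arrays centred on their medians 3 fell and the median was -0.25, and with 32 added 6 rose. gsp-3, a phosphatase gene of sperm, stood at 10.19, 10.37 and 10.31 on the dpy-9 arrays, against 3.96, 3.33 and 3.54 on the N2 arrays (change 6.68 ± 0.30), and spe-18, needed in spermatogenesis, at 8.65, 8.66 and 8.95 on the dpy-9 arrays, against 2.53, 2.71 and 2.56 on the N2 arrays (change 6.16 ± 0.23). The 6 marker genes of males had means near background in every isotonic group, and limma called 0 of them (2 with an unadjusted p under 0.05).

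Of 29 oocyte and early embryo genes 24 fell and none rose, with a median change of -1.92, although with arrays centred on the bright probe sets 7 fell. The zinc finger genes oma-1 and oma-2, needed for oocyte maturation, fell by 1.95 and 2.04 on the log2 scale, and oma-1 stood at 9.83, 9.95 and 9.70 on the dpy-9 arrays, against 11.69, 11.86 and 11.79 on the N2 arrays. rme-2, the yolk receptor gene of the oocyte, stood at 11.39, 11.38 and 11.16 on the dpy-9 arrays, against 13.37, 13.27 and 13.14 on the N2 arrays, and lin-41, which holds back oocyte maturation, at 6.80, 6.86 and 6.40 on the dpy-9 arrays, against 9.59, 9.31 and 9.56 on the N2 arrays. cav-1, the caveolin gene, had changes of -3.40 and -3.43 on its 2 probe sets. In each of these genes every dpy-9 array was below every N2 array. Of 29 replication and mitosis genes 11 fell and none rose, cye-1, the cyclin E gene, with a change of -2.07 and rnr-1, a ribonucleotide reductase gene, with -1.82, and none was called with arrays centred on bright probe sets. Of 5 yolk protein genes, which the adult intestine expresses, 3 fell (vit-1, vit-4 and vit-5, with changes of -1.96, -1.71 and -1.79), and none was called in that same scaling.

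Sarcomere genes were higher. Of 35 muscle genes 17 rose and none fell, with a median change of 1.58, and 9 rose with arrays centred on their medians. Without probe sets that can bind several transcripts 11 muscle genes were left, of which 4 rose, with a median change of 0.86. myo-3, a myosin heavy chain gene of body wall muscle, stood at 8.85, 9.04 and 8.67 on the dpy-9 arrays, against 5.49, 5.79 and 5.81 on the N2 arrays (change 3.16 ± 0.21), and unc-54, the major one, at 12.27, 12.65 and 12.54 on the dpy-9 arrays, against 10.51, 10.37 and 10.61 on the N2 arrays (change 1.99 ± 0.17). tni-1, a troponin gene, rose by 3.93. Of 48 neuropeptide genes of the flp and ins classes 11 rose, flp-9 by 3.75 and flp-15 by 3.19, but 4 with arrays centred on their medians and 3 with 32 added. In whole worms more cells of a type and more RNA per cell of that type cannot be told apart.

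Marker genes of tissues also differed, and their part in the other changes was not tested. Among germ line markers 1 of 15 fell (glp-1, the germ line Notch receptor gene, by 1.60 on the log2 scale) and their summed intensity was 14320 to 16210 on the dpy-9 arrays and 24950 to 28150 on the N2 arrays. Among body wall muscle markers 6 of 9 rose, with a sum of 34020 to 39590 on the dpy-9 arrays and 15000 to 15460 on the N2 arrays, while the muscle factor gene hlh-1 was near background throughout. Of pharynx markers 5 of 10 rose (sum 647.7 to 823.1 on the dpy-9 arrays and 195.3 to 207.7 on the N2 arrays), of intestine markers 4 of 14 (sum 90680 to 99050 on the dpy-9 arrays and 104900 to 110600 on the N2 arrays), of neuron markers 3 of 16 (sum 3577 to 3888 on the dpy-9 arrays and 2523 to 2779 on the N2 arrays), and of epidermis markers 4 of 12 rose and 1 fell (sum 4665 to 5435 on the dpy-9 arrays and 4638 to 5696 on the N2 arrays). With arrays centred on their medians 2 body wall muscle, 2 pharynx and 2 epidermis markers rose, and 5 germ line, 2 intestine and 1 neuron markers fell. With 32 added 1 pharynx and 1 epidermis marker rose, with centring on bright probe sets 7 neuron markers did, and the call of glp-1 was lost in each of the other scalings but centring on the medians, and without dpy-9 replicate 1 or 3 (change -1.47 without replicate 3). The sperm genes, the oocyte genes, bli-1, bli-2 and the molting genes change with age in the last larval stage and early adulthood. The exact age of the worms cannot be told apart from the genotype in these groups. The same holds for the other gene groups above, the collagen, hedgehog-related, astacin and yolk protein genes among them.

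**Figure D4:**
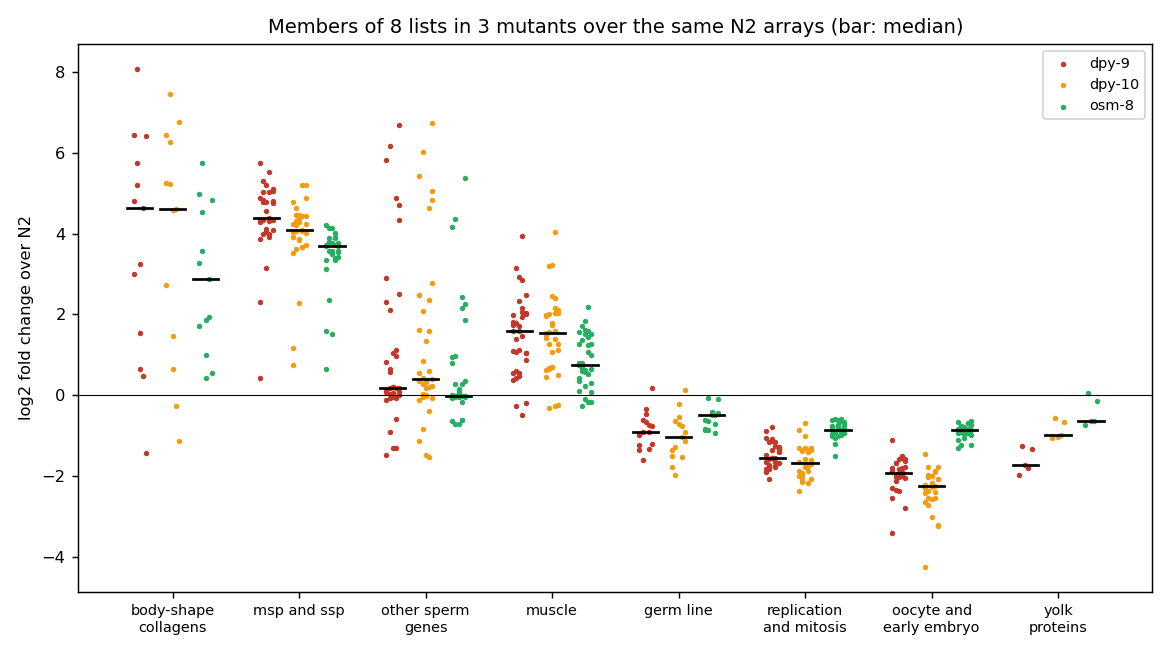
Log2 fold change over N2 of every measured member of 8 gene lists in dpy-9, dpy-10 and osm-8, all over the same 3 N2 arrays, with the median as a black bar. At the deposited scale the dpy-9 medians of the collagen, major sperm protein and muscle lists lie above 0. That of the other sperm genes lies near 0 (below it with arrays centred on their medians). Of those 37 genes 20 were near background in dpy-9 and N2. The germ line, replication, oocyte and yolk medians lie below 0.

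The 12 genes with the largest rises were mostly uncharacterised or collagens. H23N18.5 led them, at 11.49, 11.32 and 11.37 on the dpy-9 arrays, against 2.28, 2.26 and 2.30 on the N2 arrays (change 9.11 ± 0.16, adjusted p = 1.51e-14), followed by col-109, R12E2.7 (8.92), E01G4.6 (8.54), ZK180.5 (8.51 and 7.80 on its 2 probe sets), col-60 (8.42), dbd-13 (8.35), col-49, col-48, hmit-1.1, col-120 and H10E21.4 (8.14 and 7.99 on 2 of its probe sets). On the probe set with the largest rise each had an N2 mean near background, except col-49 at 4.11. On those probe sets all but hmit-1.1 also had means near background in osm-7 and osm-11. H23N18.5 averaged 11.39 in dpy-9, 10.84 in dpy-10, 8.86 in osm-8, 2.29 in osm-7, 2.28 in osm-11 and 2.28 in N2.

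The falls were smaller. After col-101 came sea-1, a T-box gene, at 2.93, 2.91 and 2.51 on the dpy-9 arrays, against 7.29, 7.54 and 7.50 on the N2 arrays (change -4.66 ± 0.18), the zinc finger gene pzf-1 (-4.51), skr-15, which encodes a Skp1-related ubiquitin ligase adaptor (-4.51), T01G5.7 (-4.21), the gap junction gene inx-3 (-4.21), R04D3.4 (-4.17), F14D7.2 (-4.14), C49F5.6 (-4.14), ZK813.2 (-4.13), rgs-9, a regulator of G protein signalling (-3.93), and meg-4, a gene of the germ granules (-3.92). sea-1, pzf-1, skr-15, T01G5.7, R04D3.4, rgs-9 and meg-4 were near background in dpy-9, so that their falls are lower bounds. inx-3 stood at 4.48, 4.68 and 4.23 on the dpy-9 arrays, against 8.52, 8.69 and 8.80 on the N2 arrays, with a second probe set at -4.11.

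Classes noticed only after the values were seen are given here as a description. Of 11 abu genes, known to be induced where the unfolded protein response is blocked, 8 rose and none fell, abu-13 by 6.60, abu-8 by 6.36, abu-15 by 5.77 and abu-14 by 5.51. abu-14 stood at 10.97, 10.89 and 10.27 on the dpy-9 arrays, against 5.05, 5.26 and 5.28 on the N2 arrays. Of 21 innexin genes, which form gap junctions, 5 rose and 5 fell: inx-15 rose by 3.23 and inx-12 by 2.22, whereas inx-3 and inx-2 fell, with inx-2 at 4.33, 4.88 and 4.52 on the dpy-9 arrays, against 8.32, 8.35 and 8.14 on the N2 arrays. Of 19 Skp1-related genes 8 fell and 1 rose, skr-8 by a change of -3.74 and skr-7 by -3.53. Of 40 transthyretin-like genes 13 rose and 1 fell, ttr-14 and ttr-44 rising by 5.29 and 5.06. The calls of the abu class numbered 8 in each scaling but with 32 added, which gave 7. Without probe sets that can bind several transcripts 4 abu genes were left, of which 2 rose, with a median change of 1.65. The abu rises therefore do not all count as separate measurements. The innexins called lower ranged from 3 with centring on bright probe sets to 7 with centring on the medians.

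Lipid genes gave mixed values. far-3, a fatty acid and retinol binding protein gene, stood at 12.96, 12.92 and 12.92 on the dpy-9 arrays, against 6.08, 5.64 and 5.79 on the N2 arrays, and of 17 lipid binding genes it rose with far-8 (3.99), lbp-5 (3.09) and lbp-7 (3.05). The desaturase gene fat-7 was the 1 gene of the lipid lists that fell, at 9.62, 8.91 and 9.27 on the dpy-9 arrays, against 11.74, 11.43 and 11.40 on the N2 arrays, whereas the elongase genes elo-4, elo-6 and elo-7 rose by 3.23, 1.80 and 1.92.

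The other furrow mutant gave few differences. Set directly against dpy-10, without use of the N2 arrays, dpy-9 had 48 probe sets higher and 25 lower, 0.213% and 0.111% of those tested (0.21% and 0.129% with 1 probe set per gene). Of the higher ones parg-2, a poly(ADP-ribose) glycohydrolase gene, differed most, at 7.82, 7.18 and 7.04 on the dpy-9 arrays and 2.65, 2.92 and 2.65 on the dpy-10 arrays (difference 4.61 ± 0.21, adjusted p = 1.03e-08). Its mean was 7.35 in dpy-9 and between 2.74 and 3.09 over the other 4 mutants and N2, all near background. Then came F54B8.4 (2.97), Y58A7A.5 (2.85), the glutamine-rich protein gene pqn-26 (2.57), F40E10.5 (2.47) and T21C9.9 (2.32). F54B8.4 stood at 9.69, 9.31 and 9.65 on the dpy-9 arrays and 6.82, 6.64 and 6.29 on the dpy-10 arrays. Y58A7A.5 varied widely in N2, with 3.79, 4.50 and 6.20.

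Among the genes lower in dpy-9 than in dpy-10, pud-4, whose protein is known to accumulate in daf-2 mutants, stood at 4.73, 4.50 and 3.75 on the dpy-9 arrays and 8.81, 9.52 and 9.03 on the dpy-10 arrays (difference -4.79 ± 0.28, adjusted p = 2.66e-07), and pud-3 differed by -3.42. The lysozyme gene ilys-2 stood at 4.11, 4.24 and 3.96 on the dpy-9 arrays and 8.60, 8.93 and 8.84 on the dpy-10 arrays (difference -4.69 ± 0.21), and its mean was 4.10 in dpy-9, 7.90 in osm-8, 9.85 in osm-7, 10.02 in osm-11 and 2.53 in N2. ilys-3 averaged 3.44 in dpy-9, 6.19 in dpy-10, 10.07 in osm-8, 7.64 in osm-7, 10.13 in osm-11 and 3.21 in N2. In both lysozyme genes the dpy-9 mean was nearest to that of N2 among the 5 mutants. The mannosidase gene aman-1 (-2.51), ugt-53 (-2.27), the metallothionein gene mtl-1 (-2.25) and cnc-7 (-1.80) were lower in dpy-9 as well. Of gpdh-1 and hmit-1.1 neither was called, with differences of -1.27 and -0.78. A fit with only the 6 arrays of both mutants called 5 probe sets, and leaving out single arrays gave 52 to 90.

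**Figure D5:**
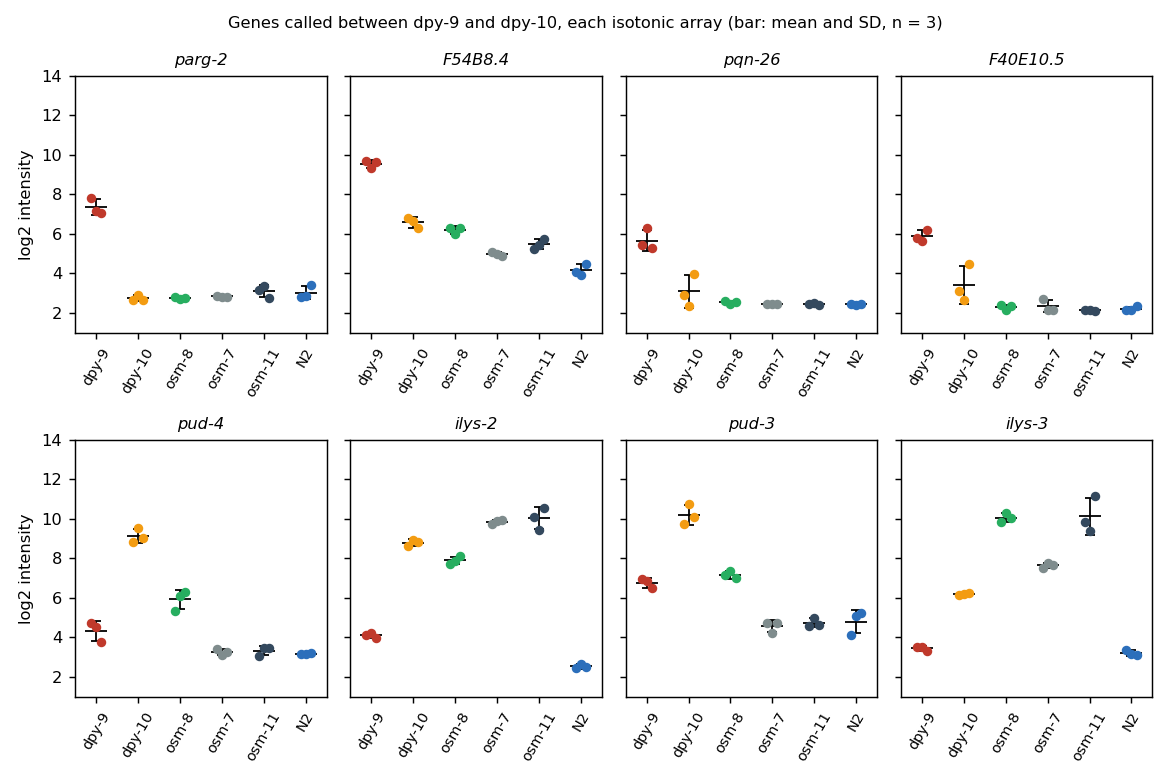
Log2 intensity of 8 genes on the 3 arrays of each isotonic group, dpy-9 at the left and N2 at the right, with the mean and SD as black bars. The upper row holds genes higher in dpy-9 than in dpy-10 and the lower row genes lower in it, with both lysozyme genes low in dpy-9 and N2 and raised in the other mutants.

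The mutant osm-8 differed from dpy-9 at more probe sets than dpy-10 did. Set directly against osm-8, dpy-9 had 825 probe sets higher and 210 lower, 3.66% and 0.931% of those tested and 4.59% in both directions together (3.95% and 1.01% with 1 probe set per gene). The highest were ZK1025.3 (5.67), nspe-1 (5.20), abu-8, pqn-54 (4.98), the lipase gene lips-3 (4.72) and F01D5.5 (4.71). ZK1025.3 averaged 9.48 in dpy-9, 9.31 in dpy-10, 3.82 in osm-8 and 2.69 in N2. The lowest were ilys-3 (-6.63), the lysosomal lipase gene lipl-1 (-4.80), col-101 (-4.08), the lectin gene clec-60 (-4.02), hacd-1, a hydroxyacyl-CoA dehydrogenase gene (-3.85), and ilys-2 (-3.79). lipl-1 averaged 3.50 in dpy-9, 8.30 in osm-8 and 3.39 in N2, so that this gene was near background in the furrow mutant and bright in osm-8. Of the body-shape collagens 4 of 13 were higher in dpy-9 than in osm-8 and 1 lower, with dpy-5 at a difference of 2.33 and dpy-17 at -1.98, and of the osmolyte genes 3 of 26 were higher and none lower, with hmit-1.1 at a difference of 0.31 and hmit-1.2 at 3.74. Of the oocyte genes 2 were lower in dpy-9 than in osm-8, and their median change over N2 was -1.92 in dpy-9, -2.25 in dpy-10 and -0.87 in osm-8, all over the same N2 arrays.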

How the data were processed

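Labelled RNA of 30 samples was hybridised to the Affymetrix C. elegans array. The authors normalised the intensity values with GC-RMA in Partek, per the paper's methods and the submitters' processing notes, and deposited them as linear intensity. Depth does not apply, and 3 arrays a group limit the precision. Of 22625 probe sets 77 were controls, and 22548 were tested. Probe sets were named from the platform's annotation and 20701 of the 20766 that stand for 1 gene matched RefSeq genes of assembly WBcel235 by identifier, which changed no symbol. Log2 values of the 18 isotonic arrays were fitted in 1 model of 6 groups with limma 3.58.1 in R 4.3.3 (empirical Bayes with a mean trend), with Benjamini-Hochberg adjustment over all 22548 probe sets. Probe sets were called past a threshold of 0.01 on the adjusted p and a 3-fold change, the limits that the study used for its salt series. The permutation-based SAM of the methods and its filter on present calls were not run here. A gene was counted by its probe set of highest mean. Some genes belong to more than 1 list and are counted in each.

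Genes are named as the mutated gene, the 12 largest rises and falls, the 6 most different each way from dpy-10 and osm-8, and the leading members of each list. The members, lists and tests were chosen with earlier results of these data known. Genes named beyond the rule, and the abu, innexin, skr and ttr classes, were chosen after their values were seen. Alternatives were other scalings, 32 added to each intensity, a filter on low values, no variance trend, other limits, probe sets without cross-hybridising designs, both groups alone, the replicate number as a block and each array left out. The fit was tested on simulated data.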

Additional observations from a re-analysis of the deposited data

Results flagged for a closer look

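The rule applied here marks genes named above whose change over N2 differed between the furrow mutants dpy-9 and dpy-10, by a direct limma contrast of both that passed the limits used above. The contrast does not use the N2 arrays. Differences are dpy-9 minus dpy-10 on the log2 scale. Those higher in dpy-9 were parg-2 (4.61), F54B8.4 (2.97), Y58A7A.5 (2.85), pqn-26 (2.57), F40E10.5 (2.47), T21C9.9 (2.32) and pqn-54 (1.74). Those lower in dpy-9 were pud-4 (-4.79), ilys-2 (-4.69), pud-3 (-3.42), ilys-3 (-2.75), aman-1 (-2.51), ugt-53 (-2.27), mtl-1 (-2.25), cnc-7 (-1.80) and hacd-1 (-1.63). For aman-1 the changes over N2 ran in opposite directions, with -0.73 for dpy-9, which was not past the limits, against 1.79 for dpy-10. For parg-2 the changes over N2 were 4.32 for dpy-9 against -0.29 for dpy-10. No group had the 4 arrays that a test for a single outlying array needs.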

How the results depend on the processing

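The counts of 3329 probe sets called against N2, 73 against dpy-10 and 1035 against osm-8 became 1622, 16 and 363 with 32 added to each intensity, 1914, 45 and 636 without probe sets that can bind several transcripts, and 6441, 427 and 2318 at an adjusted p of 0.05 and 2-fold. With the arrays of both groups alone the count against dpy-10 was 5. Leaving out each array in turn gave 3170 to 3516 against N2, 52 to 90 against dpy-10 and 993 to 1050 against osm-8. Centring on bright probe sets was chosen after seeing the data. Changes over N2 that turned were those of ilys-3 (-0.207 with arrays centred on their medians and -0.0706 after quantile normalization), lipl-1 (-0.332 and -0.265 in the same settings), elt-2 (-0.0940 after quantile normalization), dpy-9 (-0.0300 after quantile normalization) and hlh-1 (0.390 with centring on bright probe sets), none of them past the limits. The cause was not tested. Of the named genes called against N2, 25 were no longer called with 32 added, 14 with arrays centred on their medians (among them gpdh-2, unc-54, dpy-7 and tir-1), 10 with centring on bright probe sets and 3 after quantile normalization, and 3 with the arrays of dpy-9 and N2 alone (cnc-2, cnc-6 and nhr-23). With the replicate number as a block the counts were 3321, 61 and 1022, and aqp-1 was no longer called (adjusted p = 0.0107). Same-numbered dpy-9 and N2 arrays had deviations that correlated at 0.191, 0.0368 and 0.362, so the numbers were not taken as a pairing. The number of arrays limits what can be called, and changes at levels near background are bounds.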

Other observations

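A few further groups are given as values, of which the irg, nspd and nspg classes were chosen after their values were seen. Of 8 irg genes, named for their response to infection, 4 rose and none fell, irg-7 at 11.64, 11.46 and 11.53 on the dpy-9 arrays, against 8.41, 8.20 and 8.05 on the N2 arrays. Every dpy-9 array was above every N2 array. irg-4, irg-5 and irg-8 rose by 3.26, 3.19 and 2.54. Of 18 small peptide genes of the nspd and nspg classes 12 rose and none fell, nspd-2 by 5.02 and nspg-13 by 2.65, and members of a class are close in sequence. The cadmium response gene cdr-2 rose by 4.73. The lysosomal lipase genes lipl-2 and lipl-5 rose by 2.82 and 2.69. Of 243 nuclear hormone receptor genes 5 rose, nhr-8 by 3.05 and nhr-68 by 1.93, and 2 fell, nhr-2 with a change of -2.27 and nhr-23. With arrays centred on their medians 2 of these receptor genes rose and 10 fell.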
